A study of Mus musculus with 76 samples.

Results

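Among 76 patched neurons of the neonatal mouse hippocampus, 46 carried both Lhx6 and Gad1 at 100 CPM or more (CPM, counts scaled to a common total per cell), and these strict MGE interneurons were compared between gephyrin mutants and wild types cell by cell. Of the 76 labelled cells, 67 stood in the authors' filtered count table and 62 of those had no contamination mark. The selection took 13 of 19 Mut female, 11 of 15 Mut male, 8 of 9 WT female and 14 of 19 WT male cells, or 24 Mut and 22 WT cells. The cells came from the dorsal CA1 pyramidal layer of mice at postnatal day 4, and each was sampled by Patch-seq: its contents were drawn into a recording pipette and sequenced with a Nextera XT library. Mut stands for GPHNS268/270A, gephyrin in which alanine replaces serines 268 and 270, and WT for GPHNWT. All 4 groups also carried an Nkx2.1 Cre driver and the Ai14 TdT reporter, so both genotypes were picked by red fluorescence that records past Nkx2.1 expression, without regard to the class a cell will become. The series' design text expects such cells to be enriched for future parvalbumin basket cells. The labels name no animal, litter or slice, so cells were not treated as replicates, and shares and medians over cells carry no p-value.

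The medial ganglionic eminence (MGE) is an embryonic zone of the ventral forebrain that produces parvalbumin and somatostatin interneurons. Its cells switch on Lhx6, a transcription factor that directs their migration and class, and make GABA with Gad1. Gephyrin, encoded by Gphn, clusters receptors for GABA and glycine under inhibitory synapses and also catalyses the last steps of molybdenum cofactor synthesis. Phosphorylation of its serines alters how the scaffold assembles.

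The reference sequence around the mutated serines is shown because it is the difference that defines the genotypes. Of the annotated coding transcripts of Gphn on GRCm38, one of 769 codons has serine at both codon 268 and codon 270, counted from the start codon, at chr12:78504671-78504715 on the plus strand within 1 exon. The capitals mark both serine codons, which the mutant allele replaces with alanine codons.
Gphn codons 268 and 270: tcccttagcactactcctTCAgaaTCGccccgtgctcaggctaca

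The selection gene values are a description, since they chose the cells. Lhx6 lay between 107.8 and 1628 CPM in the 46 cells, and the highest unmarked cell below the limit had 82.6 CPM. Gad1 lay between 213.2 and 1705 CPM, and the highest unmarked cell below the limit had 62.8 CPM. Of the 16 unmarked cells left out, 12 were under the Lhx6 limit, 10 under the Gad1 limit and 6 under both. Median Lhx6 was 561.6 CPM in Mut cells and 426.2 CPM in WT cells, and median Gad1 was 578.9 CPM in Mut cells and 536.9 CPM in WT cells.

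The label of MGE interneuron was checked against genes that the rule did not use, counted at 10 CPM or more. Gad2, the other GABA-synthesizing enzyme, was carried by 41 of 46 cells, the interneuron transcription factor Dlx1 by 37 and the neuregulin receptor Erbb4 by 33. Sox6 and Satb1, transcription factors downstream of Lhx6, were carried by 19 and 17 cells, and Slc32a1, which loads GABA into vesicles, by 19. Of the 16 unmarked cells outside, 6 carried Sox6 and 6 Satb1, shares near those inside. Gad2 was carried by 7 of these 16, Dlx1 by 6, Erbb4 by 4 and Slc32a1 by 4. Inside the selection, Nkx2-1, whose past expression the reporter records, was carried by 11 cells and Pvalb by 1. Of 14 listed parvalbumin-lineage genes, 11 were carried by 5 cells or more. By the same limit, 13 of 17 pyramidal markers and 9993 of all 35825 genes were carried, so the count does not mark that lineage. Pyramidal transcripts were present too: Neurod6 was carried by 25 cells and the vesicular glutamate transporter Slc17a7 by 15. At least 3 of 17 pyramidal markers reached 10 CPM in 20 of 24 Mut and 20 of 22 WT cells, so in most of the selection. CGE markers, of interneurons born in the caudal eminence, were also present. At least 3 of these 12 markers reached 10 CPM in 13 of 24 Mut and 14 of 22 WT cells. They summed to a median of 424 CPM in Mut cells (68.0 to 1262) and 554 CPM in WT cells (12.4 to 1553). Cck, a peptide gene among them, was carried by 16 Mut and 19 WT cells, and Prox1 by 4 of the 46 cells.

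Pyramidal, microglial, haemoglobin and astrocyte markers had lower median sums in Mut cells when both sexes were pooled. The 17 pyramidal markers summed to a median of 554 CPM in Mut cells (78.4 to 3182) and 968 CPM in WT cells (155.8 to 5910), but within males the Mut median of 1035 CPM was above the WT median of 853 CPM. The 12 microglial markers summed to a median of 9.47 CPM in Mut cells (1.31 to 318) and 29.4 CPM in WT cells (0.922 to 1010). Their female medians were close, 9.15 CPM in Mut and 9.63 CPM in WT, and the male ones were 11.3 CPM in Mut and 49.4 CPM in WT. At least 3 microglial markers reached 10 CPM in 0 Mut cells, against 1 WT female and 3 WT male cells. The 4 haemoglobin genes summed to a median of 208 CPM in Mut cells (2.66 to 2846) and 383 CPM in WT cells (2.75 to 13445). The 11 markers of astrocytes and radial glia had medians of 147 CPM in Mut cells (4.42 to 5787) and 245 CPM in WT cells (8.14 to 5427), but within females the Mut median of 219 CPM was above the WT median of 198 CPM. Cajal-Retzius markers were at a median of 11.7 CPM in Mut cells and 6.80 CPM in WT cells. All ranges overlapped between genotypes, and no marker of the first 4 lists was at 0 in every cell of a genotype. Their part in the differences below was not tested, except where a value without such cells is given.

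**Figure D1:**
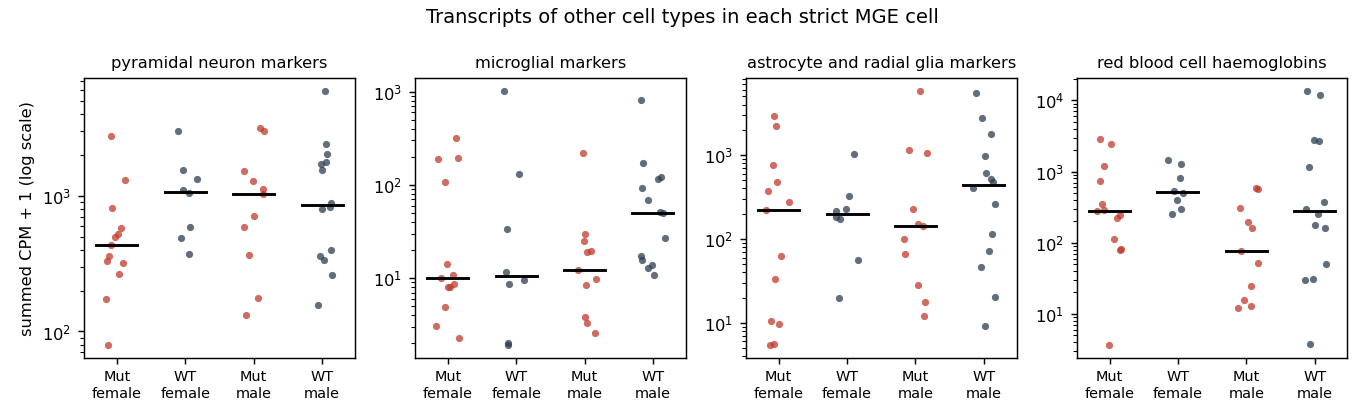
Summed CPM + 1 of pyramidal, microglial, astrocyte and haemoglobin markers (log scale) in each strict MGE cell, by genotype and sex; bars are medians. The highest microglial sums, up to 1010 CPM, were in WT cells, and haemoglobin had a median of 75.6 CPM in Mut males and 277 CPM in WT males.

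Median depth was similar in the genotypes. A cell held a median of 7489844 counts in Mut (3954766 to 12070780) and 6656740 in WT (3543753 to 10359434). It carried a median of 4425 genes at 10 CPM or more in Mut and 4394 in WT, or 4426 and 4398 after every cell was thinned to the smallest total. Single cells fell well below this: WT female cells 8 and 9 had 2138 and 2318 genes, WT male cell 20 had 2171 and Mut male cell 7 had 2490. The other 6 WT female cells had 3963 to 6011. The most abundant gene took a median of 1.88% of a Mut cell's counts and 3.14% of a WT cell's. It was Lars2 in WT male cell 3, at 20.3%, and Gm19220 in WT female cell 4, at 11.6% (both genes are described below). The number in a cell's title, whose meaning the labels do not give, was unevenly spread over the genotypes. The 23 cells with the lower numbers were 8 Mut and 15 WT cells, and the 23 with the higher numbers 16 Mut and 7 WT cells. Median counts were 6003914 in Mut and 5970677 in WT among the lower numbers, and 7805655 in Mut and 8597201 in WT among the higher. The most abundant gene took a median of 3.07% in Mut and 4.26% in WT among the lower numbers, and 1.67% in Mut and 1.75% in WT among the higher. Fewer cells carrying a gene and less RNA captured per cell cannot be told apart in such data.

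Detection differed by genotype for few genes. Of 9993 genes carried by at least 5 of the 46 cells, 24 (0.24%) were carried by a share of Mut cells at least 30 percentage points above the WT share in each sex, and 22 (0.22%) by a share at least 30 points below it. A share above WT in both sexes, whatever its size, was seen for 24.7% of genes, and one below WT for 24.2%. Shares rest on 8 to 14 cells per group, so 1 WT female cell moves a share by over 10 points. Leaving out 1 cell at a time gave 20 to 44 genes in the first direction and 19 to 37 in the second. The first count went above 1.5 times its value without WT female cell 1 (40), 2 (38) or 6 (43), WT male cell 14 (39), 17 (37) or 19 (42), or Mut male cell 7 (44) or 16 (40). The second did so without Mut male cell 6 (36), WT male cell 20 (35) or WT female cell 8 (37). Which genes were called moved with the limit for a carrier: of the 24 and 22 genes, 7 and 10 were also called at 5 CPM, 7 and 2 at 50 CPM, and 13 and 6 at 10 TPM.

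**Figure D2:**
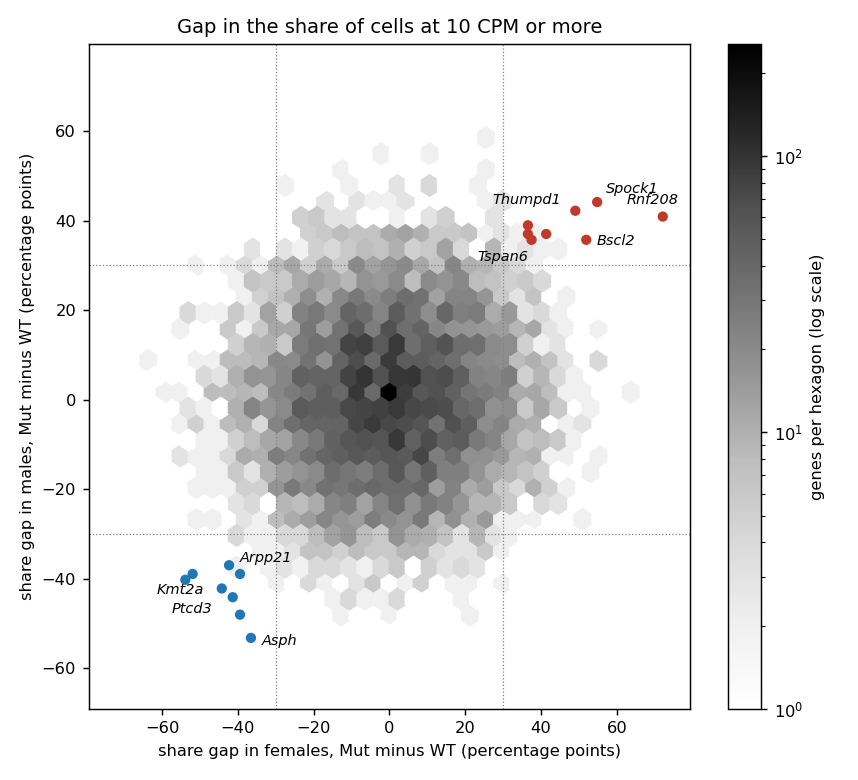
Share of cells at 10 CPM or more, Mut minus WT, in females (horizontal) and males (vertical), in percentage points, for 9993 genes; shading is the number of genes per hexagon on a log scale and dotted lines mark 30 points. Red points are the 8 genes named for more Mut cells and blue points the 8 named for fewer, at the 2 corners of a cloud centred on 0.

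Of the genes carried by more Mut cells, Spock1 had the largest gap in the sex where its gap was smaller. The gene encodes testican-1, a proteoglycan of the extracellular matrix of the brain. Carriers at 10 CPM numbered 12 of 13 Mut female cells and 8 of 11 Mut male cells, against 3 of 8 WT female cells and 4 of 14 WT male cells. That is 83.3% of Mut cells (exact Clopper-Pearson 95% interval 62.6 to 95.3) and 31.8% of WT cells (13.9 to 54.9). Its lowest, median and highest levels were 1.18, 151.9 and 684.2 CPM in Mut females and 0.622, 70.8 and 289.3 CPM in Mut males, against 0.632, 5.26 and 435.8 CPM in WT females and 0.152, 1.73 and 491.9 CPM in WT males. Cells with over 100 CPM existed in all 4 groups, so the genotypes overlapped and differed in how many cells were high. It lies on chromosome 13 (57421195 to 57908332, minus strand). The share gap of 51.5 points stayed between 50 and 55.1 when any 1 cell was left out and was 66.1 points without the cells marked as pyramidal by 100 CPM or more of Neurod6 or Slc17a7. As a sum, Spock1 had an edgeR log2 fold change of 1.25 (SE 0.49, unadjusted p = 0.0458, adjusted p = 1). Intervals here cover counting error only, since cells of 1 animal are not independent and PCR copies were not told apart.

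Thumpd1, an adaptor for acetylation of transfer RNA, was carried by 8 Mut female and 7 Mut male cells, against 1 WT female and 3 WT male cells. Its medians were 116.9 CPM in Mut females and 55.8 CPM in Mut males, against 0.729 CPM in WT females and 1.51 CPM in WT males. Most WT cells were near 0, yet the highest WT male cell had 242 CPM. Rnf208, a RING-type ubiquitin ligase, was carried by 11 Mut female and 10 Mut male cells, against 1 WT female and 7 WT male cells, with medians of 36.4 and 37.4 CPM in the Mut groups against 1.88 and 8.92 CPM in the WT groups. Its female gap of 72.1 points was the largest among the 16 genes named by share.

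Bscl2 encodes seipin, a protein of the endoplasmic reticulum that shapes lipid droplets. It was carried by 10 Mut female and 11 Mut male cells, against 2 WT female and 9 WT male cells. Median levels were 142.6 CPM in Mut females and 146.5 CPM in Mut males, against 3.54 CPM in WT females and 64.4 CPM in WT males. Tspan6, an X-linked tetraspanin, was above 10 CPM in every one of the 24 Mut cells (lowest 121.9 CPM) but in 5 of 8 WT female and 9 of 14 WT male cells. Over all male cells the medians were close, 336 CPM in Mut and 281 CPM in WT, and the share gap came from WT cells under 10 CPM. Among the lower title numbers the male medians were 238 CPM in Mut (3 cells) and 46.6 CPM in WT (9 cells). Among the higher numbers they were 360 CPM in Mut and 373 CPM in WT. Female medians were 387 CPM in Mut and 92.3 CPM in WT among the lower title numbers. Among the higher numbers the female medians were 383 CPM in Mut and 2.05 CPM in WT, the latter from 2 cells. Nudt16l1, a binding partner of the DNA repair protein 53BP1, was carried by 7 and 8 Mut cells, against 1 and 5 WT cells (females, then males). Arhgef40, a guanine nucleotide exchange factor, was carried by 8 and 8 Mut cells against 2 and 5 WT cells, and Bub3, of the mitotic checkpoint, by 8 and 9 Mut cells against 2 and 6 WT cells. None of the 8 genes passed edgeR's test on sums (adjusted p = 1), and their unadjusted p ranged between 0.0226 for Bscl2 and 0.226 for Arhgef40. None of the 8 genes was carried by WT female cell 8 or 9, the 2 WT female cells with the fewest genes at 10 CPM or more. Among the other 6 WT female cells, Tspan6 was carried by 5, Bub3 by 2 and Arhgef40 by 2. Carriers among the 13 Mut female cells were 13 for Tspan6, 8 for Bub3 and 8 for Arhgef40. Without both WT cells, the female gaps of these genes fell under the limit for a call by share. Those of the rest of the 8 genes stayed above it. Spock1 was carried by 6 of 8 Mut and 6 of 15 WT cells among the lower title numbers, and by 14 of 16 Mut and 1 of 7 WT cells among the higher. Of the 8 genes, Bub3 had the smallest gap within either set, 10 points among the lower numbers. These gaps come from the cells that chose the genes and are no further evidence.

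The 8 genes named for fewer Mut cells were led by Kmt2a, which methylates histone H3 at active genes. Carriers numbered 4 of 13 Mut female cells and 4 of 11 Mut male cells, against 6 of 8 WT female cells and 11 of 14 WT male cells. This was 33.3% of Mut cells (15.6 to 55.3) and 77.3% of WT cells (54.6 to 92.2). The lowest, median and highest values were 0.127, 5.10 and 670 CPM in Mut females and 0.687, 5.07 and 158.7 CPM in Mut males, against 0.814, 66.9 and 108.5 CPM in WT females and 0.593, 80.3 and 316 CPM in WT males. The single highest cell was a Mut female one, which held 28.7% of the Mut reads, and the edgeR log2 fold change of the sums was only -0.62 (SE 0.80, unadjusted p = 0.465).

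Asph, an aspartate hydroxylase of the endoplasmic reticulum, was carried by 5 and 2 Mut cells, against 6 and 10 WT cells (females, then males). Median Asph was 5.06 CPM in Mut females and 1.04 CPM in Mut males, against 81.5 CPM in WT females and 36.7 CPM in WT males. It had the smallest p of the 8 on sums (edgeR log2 fold change -2.21, SE 0.68, unadjusted p = 0.0188, adjusted p = 1). Ptcd3, a protein of the small mitochondrial ribosomal subunit, was carried by 6 and 3 Mut cells, against 7 and 10 WT cells. Arpp21, a phosphoprotein that binds RNA, was carried by 1 and 3 Mut cells, against 4 and 9 WT cells, although Mut male cell 7 alone reached 499 CPM and held 63.3% of the Mut reads.

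Tspoap1, also called RIM-BP1, ties calcium channels to the presynaptic release machinery. It was carried by 3 and 2 Mut cells, against 6 and 8 WT cells, with medians of 0.784 and 0.732 CPM in the Mut groups against 31.4 and 16.4 CPM in the WT groups. Vps54, of the complex that returns vesicles to the Golgi, was carried by 3 and 2 Mut cells against 5 and 8 WT cells. Lrrc17, a secreted leucine-rich repeat protein, was carried by 6 and 5 Mut cells against 8 and 12 WT cells, but its medians (9.89 and 7.36 CPM in Mut, 33.9 and 23.3 CPM in WT) lay around the 10 CPM limit. Slx1b, a subunit of a DNA endonuclease, was carried by 3 and 1 Mut cells against 5 and 8 WT cells, and its medians were also near the limit (3.46 and 3.23 CPM in Mut, 11 and 13.3 CPM in WT). At 50 CPM its gap turned to 4.17 points, higher in Mut, and among the higher title numbers it was -1.79 points.

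**Figure D3:**
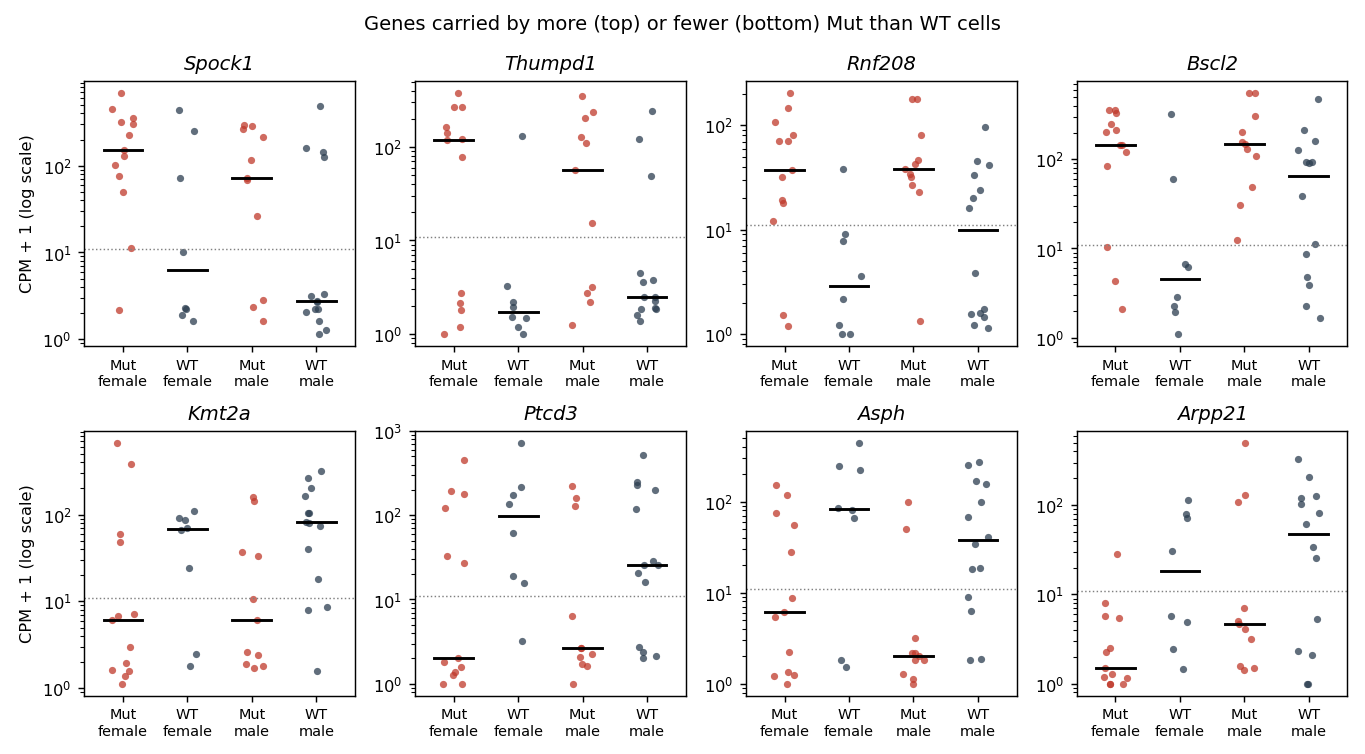
CPM + 1 (log scale) of 8 genes in each strict MGE cell, by genotype and sex; bars are medians and the dotted line is 10 CPM. Spock1, Thumpd1, Rnf208 and Bscl2 (top) had more Mut cells above the line, and Kmt2a, Ptcd3, Asph and Arpp21 (bottom) fewer, with single cells of each genotype on both sides.

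Among 4325 genes carried by at least 50% of the cells of 1 genotype, 207 (4.79%) had a median at least 2-fold higher in Mut in each sex and 214 (4.95%) a median at least 2-fold lower, on the scale of log2(median CPM + 10). A gene entered through the genotype that carries it, so a median near 100 CPM against one near 1 CPM mostly restates on which side of 50% the carriers of each genotype fall. Of the genes called by share, 15 of 24 and 10 of 22 were also called by median, which is 15 of 207 and 10 of 214 median calls. Besides Spock1, the genes named as higher were Smu1 (splicing), Arid5a (an RNA-binding regulator), Slc39a7 (a zinc transporter), Mrps7 (mitochondrial ribosome), Pfkl (phosphofructokinase of glycolysis), Rabif (a Rab GTPase partner) and Blmh (a cysteine peptidase). Their medians were 89.3 to 151.2 CPM in Mut cells and 1.13 to 5.66 CPM in WT cells. Smu1 shows the form these gaps took: 15 of 24 Mut and 9 of 22 WT cells carried it, its highest cells were alike (669 CPM in Mut, 602 CPM in WT), and the middle cell was a carrier in Mut and a non-carrier in WT.

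The genes named for lower medians were Tfrc (the transferrin receptor), Schip1 (a partner of ankyrin at the axon), Ctps (CTP synthase), Hsd17b12 (fatty acid elongation), Zfp704 (a zinc finger protein), Cib2 (a calcium-binding protein), Pgp (a metabolite phosphatase) and Slain1 (microtubule growth). Their medians were 1.12 to 17.9 CPM in Mut cells and 59.9 to 148.1 CPM in WT cells. Hsd17b12 was carried by 5 and 5 Mut cells, against 7 and 10 WT cells, and its highest values were 166 CPM in Mut and 1148 CPM in WT. Its edgeR log2 fold change was -2.08 (SE 0.57, unadjusted p = 0.0119). For Zfp704 the sums were near equal (-0.07) while the medians were 3.45 CPM in Mut and 104.5 CPM in WT.

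The 4 sums of cells, 1 for each genotype and sex, were tested with edgeR. They gave 0 genes higher and 0 lower in Mut at an adjusted p under 0.05 (0% of 15751 genes each). At an unadjusted p under 0.05, 280 genes (1.78%) were higher and 319 (2.03%) lower. Of 14224 genes tested, DESeq2 called 394 higher and 307 lower. In the genotype with the higher level, the top cell held a median of 47.1% of the reads for the genes DESeq2 called higher in Mut and 58.8% for those it called lower. The same top-cell share was not computed over all genes, so it does not set these calls apart from other genes. Among the 46 genes called by share, 6 were called by DESeq2.

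Npy, the inhibitory neuropeptide Y of many hippocampal interneurons, was among the 4 genes named from this fit as higher in Mut. It was carried by nearly every cell, 12 of 13 Mut female cells and 10 of 11 Mut male cells against 7 of 8 WT female cells and 12 of 14 WT male cells, so the gap lay in level more than in detection. The lowest, median and highest values were 7.64, 756 and 6591 CPM in Mut females and 3.87, 343 and 5234 CPM in Mut males, against 5.77, 235 and 720 CPM in WT females and 1.78, 242 and 2915 CPM in WT males. The edgeR log2 fold change was 1.84 (SE 0.41, unadjusted p = 0.00506, adjusted p = 1), 1.45 without Mut female cell 22 and 0.47 without the cells marked by pyramidal genes. Median Npy was 810 CPM in Mut and 261 CPM in WT among the lower title numbers, and 500.3 CPM in Mut and 119 CPM in WT among the higher.

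Rcn1, a reticulocalbin that binds calcium in the secretory pathway, was carried by 4 Mut female and 3 Mut male cells. No WT cell carried it, and 0 of 22 leaves room for a WT share of up to 13.6%. Its highest value was 272 CPM in Mut and 0.536 CPM in WT, and its edgeR log2 fold change was 8.55 (SE 1.71, unadjusted p = 0.00293, adjusted p = 1). Ptgs1, a cyclooxygenase, rested on 3 Mut cells and 1 WT cell, and its log2 fold change of 6.92 was 3.24 once Mut female cell 15 was left out. Timp3, an inhibitor of metalloproteinases, was carried by 9 Mut and 3 WT cells, with 79.3% of its Mut reads in Mut male cell 7. Without that cell its value of 3.72 became 1.56, and without the cells marked by pyramidal genes it was -0.05.

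The chemokines Ccl4 and Ccl3, made by microglia, were lower in Mut sums, at edgeR log2 fold changes of -5.08 and -5.37 (unadjusted p = 0.000885 and 0.00376, adjusted p = 1). Ccl4 was carried by 1 and 4 Mut cells, against 3 and 11 WT cells. Ccl3 was carried by 0 of 24 Mut cells, leaving room for a share of up to 12.5%, and by 2 and 4 WT cells. WT male cell 10, which also had the highest microglial marker sum of the WT males (803 CPM), held 52.2% of the WT reads of Ccl4. Without the 4 cells with 3 or more microglial markers, the values were -2.22 for Ccl4 and -2.31 for Ccl3. Over all 62 unmarked cells the value for Ccl4 was -0.49. Usp34, a deubiquitinase, had a log2 fold change of -2.99 in edgeR (unadjusted p = 0.00218, adjusted p = 1), or -1.65 without WT female cell 9. The helicase Dhx40 had one of -3.62 (edgeR unadjusted p = 0.00297, adjusted p = 1).

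Lars2, Gm19220 and Crym were chosen after their values were seen, because they were called lower in Mut under some alternatives. Lars2, the mitochondrial leucyl-tRNA synthetase (chromosome 9, 123366927 to 123462666, plus strand), was carried by all 46 cells. Its lowest, median and highest values were 2205, 12978 and 31009 CPM in Mut females and 2139, 4273 and 22273 CPM in Mut males, against 3867, 26756 and 65872 CPM in WT females and 1676, 14601 and 203321 CPM in WT males. The groups overlapped, and the highest cells of both sexes were WT. Whether reads of other RNA were counted as Lars2 was not tested. The edgeR log2 fold change was -1.32 (SE 0.15, unadjusted p = 0.00019, adjusted p = 1), and between -1.44 and -1.05 when any 1 cell was left out. It passed at an adjusted p of 0.0201 when every cell weighed the same (limma on mean log2 CPM), 0.00407 in edgeR without the filter on low counts, 0.0163 in the cells at 300 CPM of both selection genes, and 0.000584 without the cells marked by pyramidal genes.

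Lars2 also moved with the title number. Among the lower numbers its median was 18330 CPM in Mut (12978 to 31009) and 28480 CPM in WT (10423 to 203321). Among the higher numbers it was 3957 CPM in Mut (2139 to 19675) and 4741 CPM in WT (1676 to 16633). The medians thus differed more between low and high numbers than between the genotypes within them, and most WT cells had low numbers. With 8 sums and low or high number as a term, chosen after seeing the data, the edgeR log2 fold change of Lars2 was -0.89 (SE 0.26, unadjusted p = 0.00384, adjusted p = 1). These sums held as few as 2 cells (WT females, higher numbers). With no animal named, cells of 1 animal can be in both sums of a group, so p-values of this fit do not measure the spread between animals. The fits in which Lars2 passed have no title-number term, so the part of the title number in those calls was not tested.

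Gm19220, a processed pseudogene whose reads could be shared with its parent gene, had medians of 15513 CPM in Mut females and 13204 CPM in Mut males, against 38735 CPM in WT females and 28094 CPM in WT males (edgeR log2 fold change -0.87, SE 0.16, unadjusted p = 0.00202). It passed in the limma fit (adjusted p = 0.0348) and without the pyramidal-marked cells (edgeR adjusted p = 0.00164). Its medians were 30684 CPM in Mut and 42571 CPM in WT among the lower title numbers, and 11174 CPM in Mut and 13501 CPM in WT among the higher. With the number as a term the log2 fold change was -0.49 (edgeR, SE 0.20, unadjusted p = 0.0288), with the limit on animals given for Lars2. Crym, a thyroid hormone-binding protein, passed without the pyramidal-marked cells alone (edgeR adjusted p = 0.0038). Its medians over all strict cells were 57.0 CPM in Mut females and 203 CPM in Mut males, against 886 CPM in WT females and 902 CPM in WT males, with 20 carriers in each genotype. They were 226 CPM in Mut and 487 CPM in WT among the lower title numbers, and 83.2 CPM in Mut and 1162 CPM in WT among the higher.

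Gphn itself is changed in 2 codons, so the level of its RNA does not check the genotype labels. Carriers numbered 9 of 13 Mut female cells and 5 of 11 Mut male cells, against 7 of 8 WT female cells and 9 of 14 WT male cells, 18.3 points fewer in Mut females and 18.8 points fewer in Mut males. The lowest, median and highest values were 1.69, 130.4 and 478 CPM in Mut females and 0.136, 1.68 and 168 CPM in Mut males, against 1.05, 40.7 and 768 CPM in WT females and 0.297, 47.7 and 464 CPM in WT males. Detection was lower in both sexes, whereas the female median was higher in Mut and the male median lower. The edgeR log2 fold change was -0.53 (SE 0.49, unadjusted p = 0.321). WT female cell 8 held 76.2% of the reads of its group, and without it the value was 0.42.

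Over all strict cells, the interneuron class genes differed by few cells. Sst, the peptide of somatostatin interneurons, was carried by 6 and 3 Mut cells, against 3 and 3 WT cells (females, then males). Mut male cell 7, with 10062 CPM, held 69.5% of its Mut reads, and the edgeR log2 fold change of 3.56 (unadjusted p = 0.00697, adjusted p = 1) became 1.41 without it. At 300 CPM of both selection genes the value was -2.56. Tac1, which encodes substance P, was carried by 6 and 6 Mut cells, against 4 and 8 WT cells. Its median was 6.07 CPM in Mut females against 144 CPM in WT females, but 281 CPM in Mut males against 96.8 CPM in WT males. Its share gap turned with the title number: 2 of 8 Mut and 10 of 15 WT cells carried it among the lower numbers. Among the higher numbers 10 of 16 Mut and 2 of 7 WT cells did. Sst turned as well, with 2 of 8 Mut and 5 of 15 WT cells, then 7 of 16 and 1 of 7. Prox1, a transcription factor of interneurons of the caudal ganglionic eminence, was carried by 4 Mut female and 0 Mut male cells. Among WT cells 0 of 22 carried it, with the same limit of 13.6%. Reln, an extracellular protein of several interneuron classes, was carried by 5 and 2 Mut cells against 3 and 6 WT cells, and Nos1, the neuronal nitric oxide synthase, by 3 and 1 Mut cells against 0 and 3 WT cells.

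**Figure D4:**
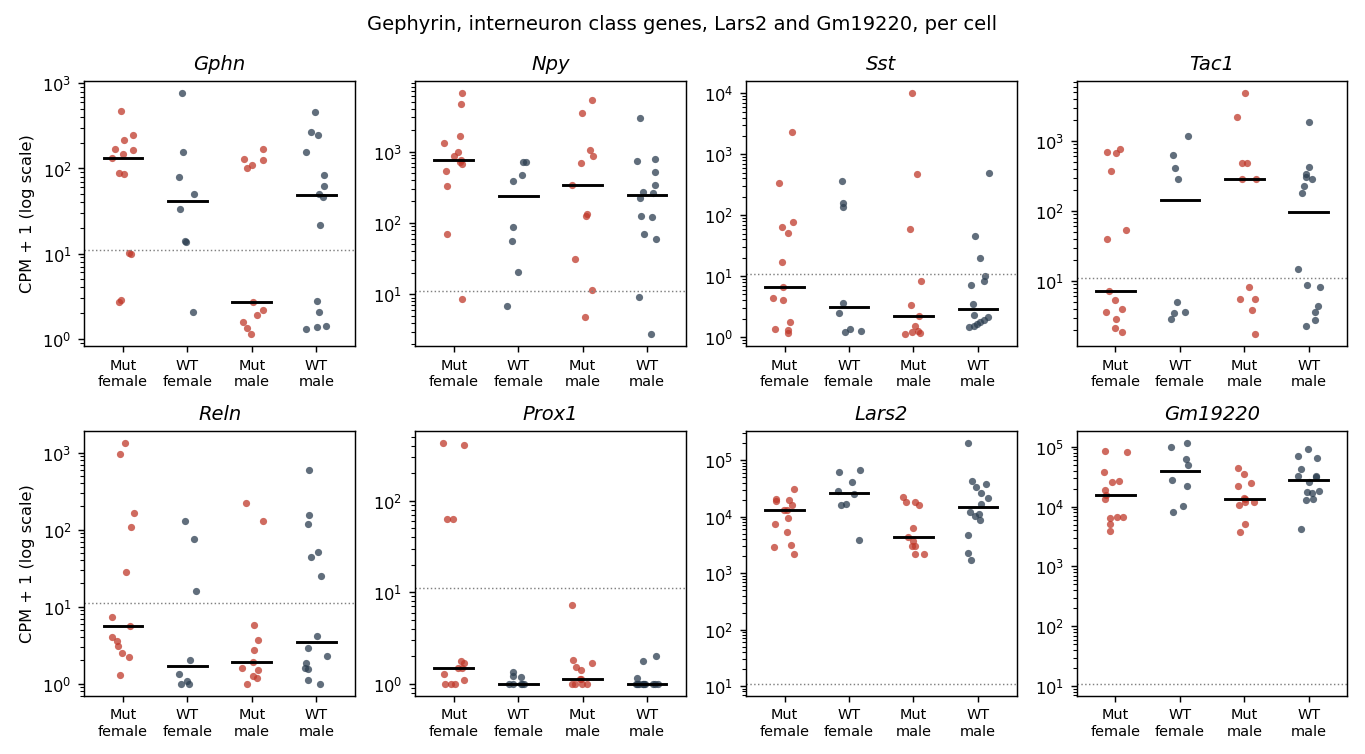
CPM + 1 (log scale) of Gphn, 5 interneuron class genes, Lars2 and Gm19220 in each strict MGE cell, by genotype and sex; bars are medians and the dotted line is 10 CPM. Npy medians were 756 CPM in Mut females and 343 CPM in Mut males, against 235 CPM in WT females and 242 CPM in WT males, the highest Sst value was in 1 Mut male cell, and Prox1 was above the line in 4 Mut female cells.

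The lists of synaptic and channel genes are given by how many members were carried by more or fewer Mut cells in both sexes, beside 24.7% and 24.2% of all genes. Members carried by under 5 of the 46 cells were not compared, and each list is given with the number that were. At inhibitory synapses, 2 of 20 scaffold and gephyrin-partner genes (of 22 listed) were higher and 9 lower, with median gaps of -5.29 points in females and -3.25 points in males. The member furthest from 0 was Mdga1, which blocks the neuroligin bridge at inhibitory synapses, carried by 2 and 1 Mut cells against 4 and 7 WT cells (edgeR log2 fold change -4.0, unadjusted p = 0.0267, adjusted p = 1). Others stood level: Gabarap, which traffics GABA-A receptors, was carried by 12 and 10 Mut cells against 7 and 12 WT cells. Of all 12 GABA-A receptor subunits listed, 3 were higher and 3 lower. Gabrb1 was carried by 6 and 5 Mut cells against 2 and 2 WT cells.

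Of 7 genes of GABA synthesis and uptake, 0 were higher and 0 lower in both sexes. Chloride transport had 2 of 11 members (of 12 listed) higher and 1 lower, and the chloride exporter Slc12a5 (KCC2) had 8 carriers among 13 Mut females and 8 among 11 Mut males, against 7 among 8 WT females and 6 among 14 WT males. The Mut share was thus 26.0 points lower in females and 29.9 points higher in males (edgeR log2 fold change 0.80 over both sexes, unadjusted p = 0.264). The molybdenum cofactor pathway had 1 of 6 (of 13 listed) higher and 1, Gphn, lower. Kinases and phosphatases of gephyrin had 3 of 20 in each direction.

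Calcium channel genes had 2 of 14 members (of 15 listed) higher and 6 lower in both sexes. Their median edgeR log2 fold change was -0.73, against 0.07 over all genes compared by share, with a median gap of -2.88 points in females and -15.9 points in males. Cacna1g, the T-type channel of burst firing, was carried by 5 and 4 Mut cells against 5 and 10 WT cells, and its median was 0.725 CPM in Mut and 39.8 CPM in WT. The auxiliary subunit Cacna2d2 was carried by 0 of 24 Mut cells, again a limit of 12.5%, and by 2 and 3 WT cells. Another auxiliary subunit, Cacnb4, went the other way: 10 and 8 Mut cells carried it against 3 and 6 WT cells, at medians of 96.7 CPM in Mut and 6.81 CPM in WT. None of these 3 channel genes passed edgeR's test (lowest unadjusted p = 0.0556, for Cacnb4, adjusted p = 1).

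Potassium channels had 3 of 19 members (of 24 listed) higher and 9 lower, and sodium channels 3 of 7 (of 8) higher and 2 lower. AMPA receptor genes had 4 of 12 (of 15) in each direction, and NMDA and kainate receptor genes 3 of 12 (of 13) higher and 2 lower. Neto1, an auxiliary protein of kainate receptors, was carried by 3 and 6 Mut cells against 0 and 3 WT cells, and the sodium channel subunit Scn2b by 6 and 3 Mut cells against 2 and 1 WT cells. Vesicle release had 5 of 24 higher and 4 lower. Adhesion molecules had 6 of 28 (of 29 listed) in each direction, with Lrrtm3 in 3 and 3 Mut cells against 0 and 1 WT cells. Migration and guidance genes had 3 of 32 (of 33) higher and 6 lower, among them Dab1 of the reelin pathway (7 and 3 Mut cells, 6 and 8 WT cells).

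Lineage lists differed by few cells. MGE identity had 5 of 17 members (of 18 listed) higher and 4 lower, with the transcription factor Sp9 in 10 and 7 Mut cells against 8 and 12 WT cells. The parvalbumin lineage had 1 of 11 (of 14) higher and 4 lower, among them Plcxd3 (2 and 1 Mut cells, 3 and 6 WT cells), and the caudal eminence markers 3 of 8 (of 12) higher and 2 lower. Of 12 interneuron peptides and class genes (of 18 listed) 5 were higher and 1 lower, and Crhbp, which binds corticotropin-releasing hormone, was in 4 and 3 Mut cells against 0 and 1 WT cells. Activity-regulated genes had 6 of 18 (of 21) in each direction, with the nuclear receptor Nr4a3 in 2 and 3 Mut cells against 4 and 7 WT cells.

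Housekeeping lists gave small gaps: 8 of 78 ribosomal protein genes (of 85 listed) were higher and 14 lower with a median gap of 0 points, and 3 of 35 proteasome genes (of 39) were higher and 12 lower with a median gap of -3.03 points. Heat shock genes had 4 of 14 (of 18) higher and 1 lower, and mitochondrially encoded genes 1 of 13 in each direction. Pyramidal markers had 0 of 13 (of 17) higher and 6 lower, at median gaps of -16.3 points in females and -2.60 points in males and a median edgeR log2 fold change of -0.86. Haemoglobins had 0 of 4 higher and 3 lower, at median gaps of -9.13 points in females and -34.4 points in males. Markers of astrocytes and radial glia had 0 of 6 (of 11) higher and 4 lower, and of the other lists microglial markers had 2 of 12 genes compared, oligodendrocyte markers 2 of 8, endothelial markers 1 of 8 and Cajal-Retzius markers 2 of 6. Gaps of 20 points or more in both sexes, seen for 2.17% of all genes in the higher and 1.58% in the lower direction, were reached by list members that include Mdga1, Gabrb1, Neto1, Scn2b, Cacnb4, Cacna1g, Cacna2d2, Lrrtm3, Dab1, Sp9, Plcxd3, Crhbp and Nr4a3, and besides by Rps15a (more Mut cells) and the endothelial Pecam1 (fewer).

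**Figure D5:**
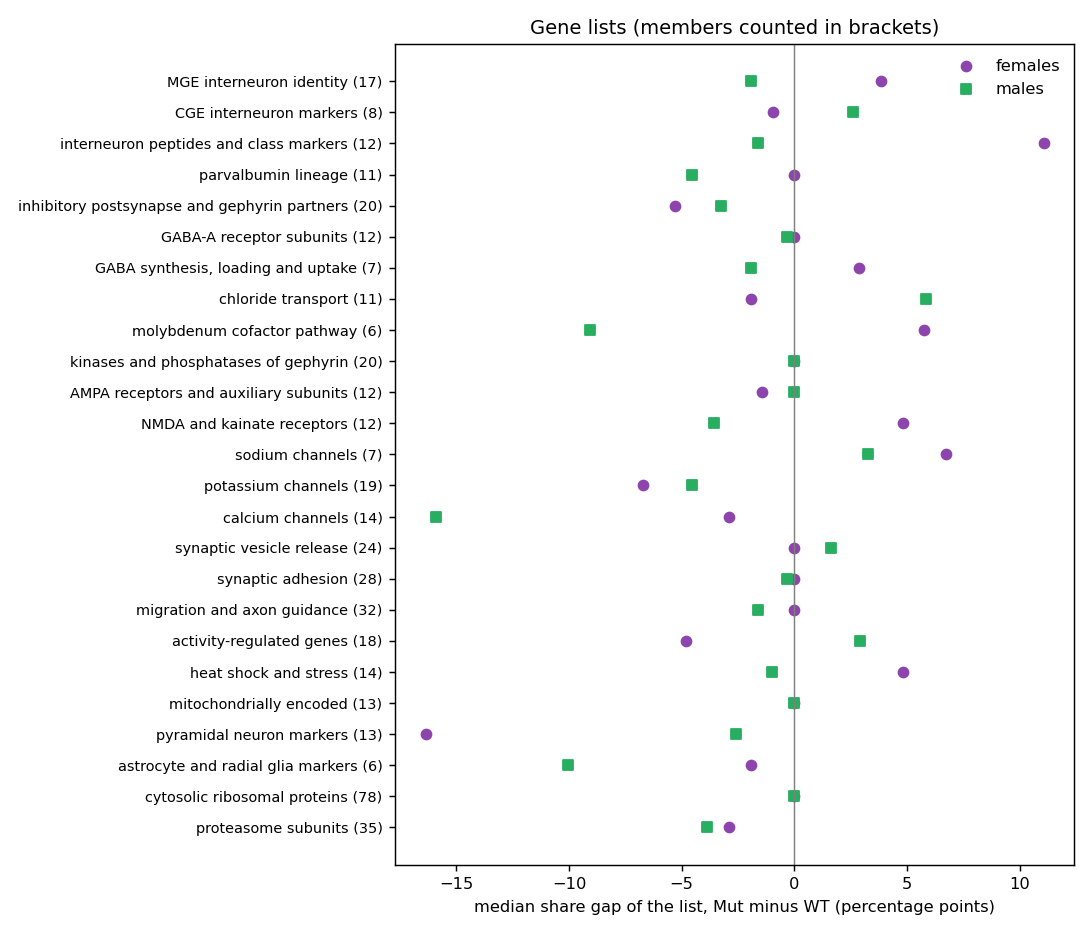
Median gap in the share of carrying cells, Mut minus WT, in percentage points, for each gene list with at least 5 genes compared, in females (circles) and males (squares); the number compared is in brackets. The medians furthest below 0 are the calcium channel list at -15.9 points in males and the pyramidal list at -16.3 points in females.

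The strict selection can be set against the 16 unmarked cells outside it, 10 Mut and 6 WT cells, which did not enter these calls. Of the 24 genes carried by more Mut cells, 13 (54.2%) had a higher Mut share outside, against 46.1% of all 9993 genes. Of the 22 carried by fewer, 9 (40.9%) had a lower Mut share outside, against 42.7% of all genes. Spock1 kept its direction, in 6 of 10 Mut and 1 of 6 WT cells, as did Thumpd1, in 7 of 10 Mut and 2 of 6 WT cells. Bub3 went the other way, in 0 of 10 Mut and 3 of 6 WT cells, and Kmt2a was in 5 of 10 Mut and 4 of 6 WT cells. Rnf208 (3 of 10 Mut, 2 of 6 WT cells), Nudt16l1 (1 of 10, 1 of 6) and Arhgef40 (4 of 10, 3 of 6) also turned. So did Ptcd3 (4 of 10, 2 of 6), Slx1b (6 of 10, 3 of 6) and Vps54 (8 of 10, 4 of 6), which were named for fewer Mut cells. The remaining genes named by share kept their direction. The outside WT cells include 1 female cell, so no comparison within females was made there. Over all 62 unmarked cells, 7 genes in each direction passed the 30-point limit, of which 5 and 5 were also called in the strict cells.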

How the data were processed

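The authors quantified reads with kallisto on GRCm38, per the submitters' processing notes, with no version given in the sources used here. The deposited count table, after the authors' quality filter, holds expected counts per gene symbol. A deposited normalized table holds TPM, checked by its column sums, and was used as an alternative. How the authors filtered cells and marked contamination is not given in the sources used here. Of the columns in the count table, 44 without a label were not used. CPM was the expected count over the column sum. The rule for cells, the gene lists and the genes followed were chosen with earlier results of these data known.

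Cells were counted as carriers at 10 CPM. Genes carried by 5 cells or more were compared by share, and genes carried by 50% of the cells of 1 genotype by median, with a pseudocount of 10 CPM. Exact Clopper-Pearson intervals are at 95%, and 0 carriers allow a share of up to 3 cells over the number of cells. Expected counts were summed over the strict cells of each genotype and sex, rounded (54060542 to 93943200 counts per sum) and tested with edgeR 4.0.16 (glmQLFit and glmQLFTest, TMM, filterByExpr) with sex and genotype as terms. This leaves 1 residual degree of freedom per gene, at a biological coefficient of variation of 0.955, so p-values measure the spread between these sums. Adjusted p-values are Benjamini-Hochberg over 15751 genes. limma 3.58.1 and DESeq2 1.42.0 were alternatives. After seeing the data, the 46 cells were also split at the middle of their title numbers, giving 8 sums with low or high number as a term. Cells of 1 animal can be in both sums of a group there. Scripts were tested on simulated data. Coordinates and codons come from GENCODE for GRCm38, with which 35338 of 35825 symbols matched. Names were taken by rule: the 8 genes per direction with the largest gap, of the smaller sex, in share and in median, up to 4 per direction from the fit, Gphn, 6 class genes, and list members with a gap of 20 points in both sexes or of highest mean. Gm and Rik names were passed over, except Gm19220. A few genes that the rule takes are not reported here. Cell numbers follow the order of the labels within a group.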

Additional observations from a re-analysis of the deposited data

Results flagged for a closer look

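Among 25 sets of values checked in groups of 4 to 10 cells, 3 had 1 cell far from the others, and chance flags about 1 set in 20. The 8 WT female cells were the only group of that size. The 3 genes had been named for having few WT carriers, 1 of these 8 cells each, so a lone high cell follows from the choice. WT female cell 4 carried Thumpd1 at 128.9 CPM, WT female cell 5 carried Rnf208 at 37.2 CPM and WT female cell 1 carried Nudt16l1 at 54.7 CPM.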

How the results depend on the processing

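The edgeR calls stayed at 0 in each direction with median-of-ratios scaling, library totals, no sex term, each sum or cell left out, cells at 10 CPM of both selection genes, all unmarked cells, and without microglia-marked cells. They were also 0 with low or high title number as a term, chosen after seeing the data (unadjusted p under 0.05 for 172 higher and 176 lower). Calls appeared with DESeq2 (394 higher, 307 lower, of 14224 genes), without the filter (1 lower), in limma on cell means (2 lower), at 300 CPM (1 lower) and without pyramidal-marked cells (3 lower). Share gap counts, higher and lower in Mut, were 15 and 29 at 10 CPM of both selection genes, 249 and 41 at 300 CPM, 340 and 37 without pyramidal-marked cells and 7 and 7 in all unmarked cells. At a detection limit of 50 CPM they were 26 and 7 (7 and 2 shared with the reported calls), at 5 CPM 21 and 30 (7 and 10 shared), at 10 TPM 29 and 17 (13 and 6 shared) and in thinned cells 23 and 25 (20 and 21 shared). Leaving out 1 cell gave 20 to 44 and 19 to 37. Median counts were 313 and 431 with a pseudocount of 1 CPM, 38 and 28 with 50 CPM, 562 and 104 at 300 CPM, 477 and 94 without pyramidal-marked cells, and 142 lower in all unmarked cells. Leaving out 1 cell gave 181 to 278 and 161 to 252. The settings at 300 CPM and without pyramidal-marked cells leave as few as 5 and 4 cells in a group. What moved the counts was not tested in any setting, and the counts are not given as shares of the genes compared in each.

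Direction turned for Slx1b (share gap 4.17 points at 50 CPM and 3.41 in TPM; log2 fold change 0.09 without the Mut male sum, 0.10 without the WT male sum, 0.075 with the title-number term, 0.021 without pyramidal-marked cells), Tspoap1 (0.016 at 10 CPM of both selection genes, 0.10 without pyramidal-marked cells) and Arpp21 (0.29 without the Mut female sum, 0.23 without the WT male sum). It also turned for Timp3 (-0.050) and Gphn (1.52) without pyramidal-marked cells, Gphn without WT female cell 8 (0.42), Sst at 300 CPM (-2.56) and without pyramidal-marked cells (-2.15), Tac1 without the Mut male sum (-0.44) and Reln without the Mut female sum (-0.69) and with the title-number term (-0.28). Nos1, at 0.83 in the reported fit, was -3.42 without the Mut female sum, -0.82 without the Mut male sum, -2.60 without the WT female sum, -0.078 in limma and -1.62 with no sex term. Over each sum or cell left out, the values spanned -0.83 to 0.10 for Slx1b, -3.88 to 0.29 for Arpp21, -0.44 to 1.6 for Tac1, -1.055 to 0.42 for Gphn, -0.69 to 2.32 for Reln and -3.42 to 5.46 for Nos1. No paired analysis was possible because the labels give no replicate number, animal or batch that Mut and WT cells share.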
